A study of Mus musculus with 30 samples.

Results

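Female mouse germ cells of E12.5 (embryonic day) that lacked Rnf2 were compared with control germ cells of the same day and sex. The 6 arrays were found by genotype, stage and sex in the sample labels, 3 Rnf2delta (Ring1+;Rnf2delta) and 3 control (Ring1+;Rnf2+), out of 30 arrays in all. The series concerns Polycomb repressive complex 1 (PRC1) and when germ cells begin their female programme. Its other arrays hold E11.5 germ cells of both genotypes and sexes, E12.5 male (XY) germ cells of both genotypes and E13.5 control germ cells of both sexes, with 3 arrays in each of the 10 groups. All embryos had a mixed background of 129/Sv and C57BL6J and carried Oct4(deltaPE)-GFP, a reporter that marks germ cells. GFP-positive cells were sorted from trypsin-treated gonads, and RNA of 500 cells per sample was amplified before hybridisation. Ring1, the paralogue of Rnf2, was intact in every group. How and in which cells the delta allele was made is not given in the sources used here. Nothing in the labels tells whether replicates are separate embryos, so p-values measure only the spread between samples, which may be technical.

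PRC1 places ubiquitin on a histone through RNF2 or RING1 and keeps genes silent, many of them developmental regulators and germline genes. Around E12.5 female germ cells leave mitosis and prepare for meiosis. Retinoic acid induces Stra8, and genes of cohesin, chromosome axis, synapsis and recombination follow, while pluripotency genes are turned off. Male germ cells of the same age enter mitotic arrest instead.

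The compared arrays stood apart from the other 24. The correlation of each array with its own group, across genes and not replicates, was 0.964 to 0.978, against 0.983 to 0.990 elsewhere. The median within-group SD over genes was 0.238 in E12.5 XX controls and 0.207 in E12.5 XX Rnf2delta, against 0.14 to 0.175 in the other groups. The test therefore gave each group its own variance (weight 0.4445 for these controls and 0.5952 for these Rnf2delta arrays, 0.89 to 1.375 for the others). The mean log2 signal over all genes tested was also lower on the control arrays (3.80 to 3.88) than on the Rnf2delta arrays (3.90 to 3.94), and 3.93 to 4.0 on the other arrays. Its part in the results was not tested.

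The sex of the embryos was read from Eif2s3y, a Y-linked gene, whose log2 level was 1.66 to 2.15 on the XX controls and 1.73 to 2.16 on the XX Rnf2delta arrays. Single XY arrays lay between 4.5 and 5.65. Xist, the RNA that coats an inactive X chromosome, spanned 2.33 to 2.88 on the controls and 3.02 to 4.06 on the Rnf2delta arrays, differing by 0.87 ± 0.27 (SE; limma adjusted p = 0.11, with 0.0059 to 0.45 over the alternatives).

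Rnf2 had log2 levels of 5.71, 5.24 and 5.08 on the 3 control arrays and 4.47, 5.0 and 4.68 on the 3 Rnf2delta arrays. All Rnf2delta arrays were below all controls, but the difference of -0.63 ± 0.26 (SE) did not pass the test (limma adjusted p = 0.27). With equal weights for all arrays it passed (adjusted p = 0.029, with 0.029 to 0.56 over the alternatives). Elsewhere in the series the Rnf2 probe set changed by -1.03 ± 0.18 in E12.5 XY (limma adjusted p = 0.0012). In E11.5 XX the change was -0.61 ± 0.17 (adjusted p = 0.086). Neither of these comparisons had overlapping groups, but E11.5 XY did (means 4.54 for control, 4.23 for Rnf2delta). The E12.5 effect did not differ past the threshold between XX and XY (0.41 ± 0.32, interaction adjusted p = 0.78). The position of the probe set within the gene is not known here, and a probe set outside the deleted part may not show the deletion. The labels therefore rest on the submitters' genotyping. Ring1 read 2.74, 3.06 and 3.51 in controls and 3.12, 2.78 and 3.10 in Rnf2delta. These groups overlapped, with a difference of -0.10 ± 0.20 (adjusted p = 0.90), which turned to 0.10 without control array 3 and to 0.01 without Rnf2delta array 2.

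Of 15180 genes tested, 235 changed (1.55%). Of these 205 rose in Rnf2delta (1.35%) and 30 fell (0.198%) at a limma adjusted p under 0.05. Every Rnf2delta array exceeded every control array for 11.9% of genes and lay below every control array for 5.81%. The median change over all genes was 0.05, and 56.7% of genes changed above 0. In a fit of the compared groups alone, 49 genes were higher (0.323%) and 5 lower (0.0329%), and 44 and 4 of these were among the 205 and 30. With equal weights for all arrays 1502 genes changed (9.89%), 1174 higher (7.73%) and 328 lower (2.16%). Single arrays mattered to the number: 75 genes passed without Rnf2delta array 1, 87 without control array 3, 110 without Rnf2delta array 2, 135 without control array 2 and 353 without Rnf2delta array 3. Quantile normalization gave 80 higher and 33 lower, a share of 70.8% higher against 87.2%. In 47 genes the call held whichever single array was left out.

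Of the 52 meiotic genes tested from 4 lists (initiation, synaptonemal complex, cohesins and axis, recombination), 11 rose and 0 fell (limma; 25 and 1 at an unadjusted p under 0.05), with a median change of 0.62 against 0.05 over all genes. The 11 were Stra8, Meioc, Rec8, Mael, Sycp1, Sycp2, Sycp3, Hormad2, Iho1, Tex11 and Cntd1, and 4 of the 9 initiation genes were among them. All 3 Rnf2delta arrays exceeded all controls for 27 of the 52, and the reverse held for 0. Over all genes these shares were 11.9% and 5.81%, and 1.35% rose, against 21.2% of the 52. Of the 11, 7 passed in the fit of the compared groups alone. Without Rnf2delta array 1, 5 passed, and 6 without control array 2 or 3. The mean over the 52 genes was 3.89 to 4.18 on the control arrays and 4.49 to 5.27 on the Rnf2delta arrays. In this bulk RNA, more cells in meiosis and more RNA per cell cannot be told apart.

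Stra8, the retinoic acid-induced gene required to start meiosis, read 3.61, 2.71 and 2.07 on the control arrays and 6.50, 5.66 and 4.60 on the Rnf2delta arrays. The lowest Rnf2delta array lay above the highest control. Stra8 rose by 2.79 ± 0.45 (SE; limma adjusted p = 6.9e-04, with 8.5e-06 to 0.048 over the alternatives). The E13.5 XX controls read 5.62 to 7.21, so E12.5 Rnf2delta germ cells overlapped the level of controls a day older. E11.5 XX arrays of both genotypes and XY arrays of every group stayed between 1.85 and 2.40.

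Meioc, needed to stay in meiotic prophase, was 2.52, 2.21 and 2.33 in controls and 6.10, 4.43 and 4.83 in Rnf2delta. It rose by 2.77 ± 0.35 (adjusted p = 3e-05, with 1.6e-07 to 0.021 over the alternatives). Its E13.5 XX control level was 4.95 to 5.67. Rec8, a meiotic cohesin subunit, was 5.02, 4.43 and 3.36 in controls and 6.35, 5.69 and 5.48 in Rnf2delta, without overlap, and 5.88 to 6.83 in E13.5 XX controls. It rose by 1.57 ± 0.30 (adjusted p = 0.0057), and the call was lost in the fit of the compared groups alone (0.15), without control array 3 (0.099) and without Rnf2delta array 1 (0.052). Rec8 ranged from 2.7e-04 to 0.15 over the alternatives. Mael, a piRNA pathway gene also placed among the early meiotic genes, rose by 1.67 ± 0.37 (adjusted p = 0.018, with 9.5e-05 to 0.10 over the alternatives). That call was lost without control array 2 (0.089), control array 3 (0.10), Rnf2delta array 1 (0.078) or Rnf2delta array 2 (0.088), and with quantile normalization. Dazl, which licenses germ cells for meiosis, differed by 0.62 ± 0.36 (adjusted p = 0.50). Zglp1, a transcription factor of the oogenic programme, differed by -0.69 ± 0.30 (adjusted p = 0.29), the opposite sign to the others.

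The synaptonemal complex, which joins paired chromosomes, showed the same direction in all 7 genes tested (56.7% of all genes changed above 0). Of the 7, 3 passed (42.9%, against 1.35% of all genes). Sycp3, a lateral element protein, read 5.44, 5.49 and 5.63 in controls and 8.90, 7.62 and 7.07 in Rnf2delta. It rose by 2.35 ± 0.44 (adjusted p = 0.0042, with 3e-05 to 0.045 over the alternatives). Sycp1, the transverse filament protein, read 3.58, 3.71 and 3.32 in controls and 6.50, 5.64 and 4.88 in Rnf2delta. It rose by 2.13 ± 0.38 (adjusted p = 0.0021, with 1.5e-05 to 0.038 over the alternatives). In both genes Rnf2delta array 1 was the highest of all 30 arrays. Sycp2, another lateral element protein, rose by 1.15 ± 0.30 (adjusted p = 0.044, with 0.0025 to 0.29 over the alternatives). The call of Sycp2 was lost without control array 1 (0.050), 2 (0.14) or 3 (0.20), without Rnf2delta array 1 (0.29), in the fit of the compared groups alone (0.23), with quantile normalization (0.059) and with no filter on low signal (0.055).

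**Figure D1:**
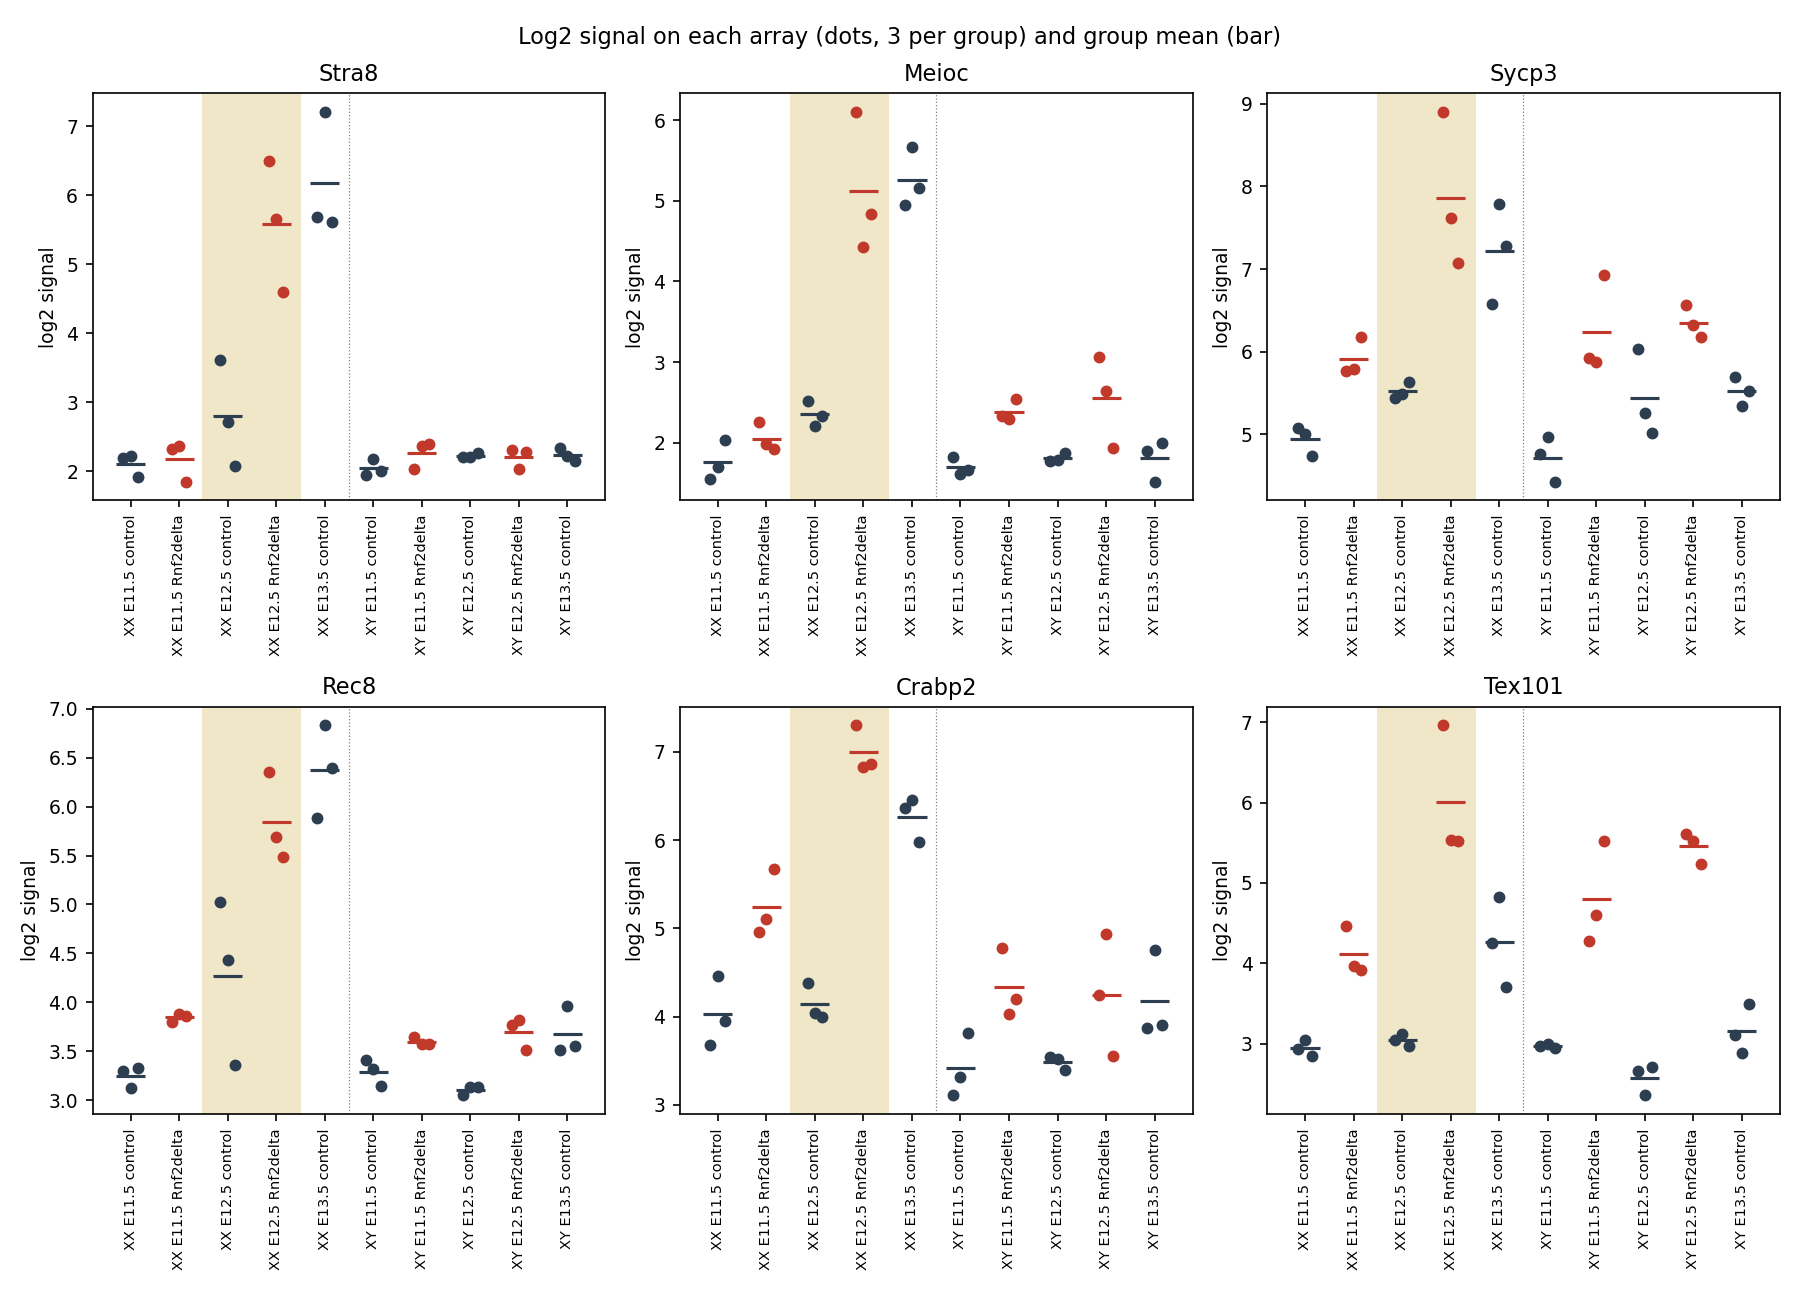
Log2 signal (vertical axis) of 6 genes on each of the 30 arrays, by group (horizontal axis); dots are arrays, bars are group means, Rnf2delta is red, control is dark blue and the compared groups are shaded. In E12.5 XX, Rnf2delta Stra8 (4.60 to 6.50) and Meioc (4.43 to 6.10) lay far above their controls and near the E13.5 XX controls, while Tex101 was also high in Rnf2delta XY germ cells (5.24 to 5.61 at E12.5).

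Among 8 cohesin and axis genes, 3 rose (37.5%, against 1.35% of all genes). They were Rec8, and with less support Hormad2 (0.90 ± 0.23, adjusted p = 0.038), a chromosome axis protein, and Iho1 (1.14 ± 0.29, adjusted p = 0.041), which binds the axis to promote DNA breaks. Of the fits that left out 1 array, Hormad2 kept its call without Rnf2delta array 2 (0.018). It was 0.059, 0.15 and 0.14 without control arrays 1, 2 and 3, and 0.21 and 0.082 without Rnf2delta arrays 1 and 3. Hormad2 also lost its call with 1 weight per array (0.054), with the compared groups alone (0.16) and with quantile normalization (0.20). Iho1 lost its call without control array 1 (0.061), 2 (0.13) or 3 (0.17), without Rnf2delta array 1 (0.26), with the compared groups alone (0.29), with quantile normalization (0.056) and with no filter (0.053). The alternatives ranged from 8.9e-04 to 0.21 for Hormad2 and from 0.002 to 0.29 for Iho1. Smc1b, a meiotic cohesin subunit, read 6.70, 6.70 and 6.04 in controls and 8.44, 7.67 and 7.34 in Rnf2delta and did not pass (1.34 ± 0.36, adjusted p = 0.050). Hormad1 differed by 0.54 ± 0.27 (adjusted p = 0.39).

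Of 30 recombination genes tested, 2 rose and 0 fell (12 and 0 at an unadjusted p under 0.05), 12 had all Rnf2delta arrays above all controls, and the median change was 0.40. The share that rose was 6.67%, against 1.35% of all genes, and 11.9% of all genes had all Rnf2delta arrays above all controls. Tex11, an X-linked gene needed for crossovers, was 2.98, 3.31 and 2.85 in controls and 5.46, 4.71 and 4.49 in Rnf2delta. It rose by 1.85 ± 0.31 (adjusted p = 0.0011, with 5.7e-06 to 0.022 over the alternatives). Cntd1, a cyclin-like crossover factor, rose by 1.13 ± 0.23 (adjusted p = 0.0074, with 9.8e-05 to 0.10 over the alternatives), and lost its call without control array 2 (0.056) or Rnf2delta array 1 (0.078) and with the compared groups alone (0.10). Dmc1, the meiotic strand-exchange recombinase, read 4.66, 4.18 and 4.57 in controls and 5.73, 4.71 and 4.82 in Rnf2delta, a difference of 0.62 ± 0.34 that did not pass (adjusted p = 0.46).

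The promoters of 6 risen genes are shown, all of which hold a marked motif. Each line gives the 250 bases before the RefSeq start (assembly GRCm38.p6), 5′ to 3′ on the gene's strand. Capitals mark matches on either strand to CACGTG (the E-box bound by MYC, MAX and MGA family proteins), TCCCGC (the core of the E2F site), AGGTCA (a half-site of retinoic acid and other nuclear receptors) and CNCCTCAG (the motif of STRA8 and MEIOSIN binding). No marked match overlapped another in these 6 sequences.
Stra8 (chr6:34920698-34920947, plus strand): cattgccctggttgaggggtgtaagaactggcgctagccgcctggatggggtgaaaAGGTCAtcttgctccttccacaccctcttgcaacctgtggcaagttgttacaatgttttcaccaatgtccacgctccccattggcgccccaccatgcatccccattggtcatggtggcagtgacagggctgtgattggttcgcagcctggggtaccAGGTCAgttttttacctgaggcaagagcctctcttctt
Meioc (chr11:102665335-102665584, plus strand): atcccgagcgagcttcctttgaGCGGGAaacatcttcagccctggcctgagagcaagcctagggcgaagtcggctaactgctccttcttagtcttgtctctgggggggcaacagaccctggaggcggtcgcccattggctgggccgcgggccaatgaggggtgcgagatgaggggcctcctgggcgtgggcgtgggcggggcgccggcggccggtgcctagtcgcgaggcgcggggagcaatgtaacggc
Sycp3 (chr10:88459337-88459586, plus strand): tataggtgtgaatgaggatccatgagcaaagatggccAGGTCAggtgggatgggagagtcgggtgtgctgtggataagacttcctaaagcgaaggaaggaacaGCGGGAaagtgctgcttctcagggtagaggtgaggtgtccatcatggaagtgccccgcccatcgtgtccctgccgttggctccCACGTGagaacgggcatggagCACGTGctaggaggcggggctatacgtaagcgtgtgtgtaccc
Sycp1 (chr3:102936101-102936350, minus strand): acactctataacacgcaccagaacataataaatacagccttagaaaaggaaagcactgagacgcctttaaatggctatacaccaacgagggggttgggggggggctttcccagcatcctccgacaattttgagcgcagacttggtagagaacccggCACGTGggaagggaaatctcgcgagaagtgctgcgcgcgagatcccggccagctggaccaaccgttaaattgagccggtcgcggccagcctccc
Mael (chr1:166238745-166238994, minus strand): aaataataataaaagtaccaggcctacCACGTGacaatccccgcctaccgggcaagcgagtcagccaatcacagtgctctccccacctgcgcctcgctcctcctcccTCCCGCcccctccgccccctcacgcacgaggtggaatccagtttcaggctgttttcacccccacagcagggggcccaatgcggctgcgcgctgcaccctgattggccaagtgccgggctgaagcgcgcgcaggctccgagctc
Taf7l (chrX:134476491-134476740, minus strand): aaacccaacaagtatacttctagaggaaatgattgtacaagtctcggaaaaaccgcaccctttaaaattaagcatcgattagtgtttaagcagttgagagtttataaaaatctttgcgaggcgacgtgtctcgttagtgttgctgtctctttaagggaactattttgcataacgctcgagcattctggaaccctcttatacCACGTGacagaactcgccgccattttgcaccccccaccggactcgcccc

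Stra8 held AGGTCA, starting 194 and 38 bases before its start, and no CACGTG in this window. Sycp3 held CACGTG at 64 and 43 bases, TCCCGC at 147 and AGGTCA at 213. Sycp1 (94), Mael (223) and Taf7l (49) each held 1 CACGTG, and Meioc held only TCCCGC, at 228 bases. Of the risen genes looked at but not shown, Slc25a31, Tdrd1 and Taf9b held CACGTG for at least 1 start. Rec8, Xlr and Hdac6 held only TCCCGC, and Tex101, Cd63, Ddx43 and Gstm5 held none of these motifs. Of 12002 tested genes with a promoter entry, 9.27% held CACGTG, against 32 of the 170 risen genes with an entry (18.8%), 27.9% of 43 meiotic genes and 48.0% of 25 licensing genes. For TCCCGC the share was 31.0% of all and 37.6% of risen genes, for CNCCTCAG 8.56% and 12.4%, and for AGGTCA 13.9% and 9.41%. These matches describe letters and not binding, and the motifs and promoters were chosen with the values known.

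Genes of germline licensing and genome defence are switched on as germ cells become sexually competent, and many of them silence transposons. Of 27 tested, 8 rose (29.6%, against 1.35% of all genes) and 0 fell (4 and 0 with the compared groups alone), with a median change of 0.66. All Rnf2delta arrays lay above all controls for 16 of the 27, and for 11.9% of all genes. Without control array 3 or without Rnf2delta array 1 the count of risen genes was 1, and it was 3 without control array 2. Tex101, a germ cell surface glycoprotein, kept its call in every alternative. It was 3.05, 3.12 and 2.97 in controls and 6.96, 5.54 and 5.52 in Rnf2delta. It rose by 2.96 ± 0.40 (adjusted p = 1e-04, with 1.6e-07 to 0.015 over the alternatives). Slc25a31, a germ cell ADP/ATP carrier, rose by 1.77 ± 0.36 (adjusted p = 0.0074), and without control array 3 or Rnf2delta array 1 its adjusted p was 0.090 or 0.053 (7.1e-05 to 0.090 over the alternatives). Tdrd7, a Tudor protein of germ granules, rose by 1.38 ± 0.27 (adjusted p = 0.0057), with 0.053 and 0.057 without the same arrays, 0.094 with the compared groups alone and 1.2e-04 to 0.094 over the alternatives. Mov10l1, a piRNA helicase, rose by 1.40 ± 0.32 (adjusted p = 0.020). Its call was lost without control array 2 (0.079), control array 3 (0.10), Rnf2delta array 1 (0.10) or Rnf2delta array 2 (0.092) and with quantile normalization (0.094), and it ranged from 2.3e-04 to 0.10 over the alternatives. Ddx4, the germ cell RNA helicase, was already high in controls (7.61, 8.12 and 7.42) and differed by 0.58 ± 0.35 (adjusted p = 0.52).

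Germline genes on the X chromosome gave 5 of 21 tested that rose (23.8%, against 1.35% of all genes) and 0 that fell, with a median change of 0.60. Taf9b, a subunit of the TFIID transcription factor, read 3.11, 3.01 and 3.27 in controls and 6.72, 6.03 and 4.82 in Rnf2delta. It rose by 2.73 ± 0.42 (adjusted p = 4.9e-04, with 1.8e-06 to 0.022 over the alternatives). Xlr, a lymphoid and germ cell nuclear protein, was 4.82, 6.32 and 5.96 in controls and 8.31, 8.15 and 7.95 in Rnf2delta, and rose by 2.43 ± 0.40 (adjusted p = 9.6e-04, with 5.4e-06 to 0.021 over the alternatives). Xlr belongs to a family of near-identical copies, so its probe set may read several. Tktl1, a transketolase-like gene, rose by 2.00 ± 0.38 (adjusted p = 0.0051, with 7.1e-05 to 0.079 over the alternatives), and its adjusted p was 0.052 without Rnf2delta array 1 and 0.079 with the compared groups alone. Taf7l, another TFIID subunit, rose by 1.89 ± 0.41 (adjusted p = 0.012, with 2e-04 to 0.11 over the alternatives). The Taf7l call was lost without control array 2 (0.087), control array 3 (0.068) or Rnf2delta array 1 (0.11) and with the compared groups alone (0.077). Over all 398 tested genes with a promoter entry on X, 18 rose (4.52%) and 0 fell, and the median change was 0.16. On the other chromosomes 152 of 11604 rose (1.31%), with a median of 0.05. This split was made after values were seen and was not tested.

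Retinoic acid signalling showed 1 gene of 19 that rose (5.26%, against 1.35% of all genes). Crabp2, which carries retinoic acid to its nuclear receptors, was 4.38, 4.04 and 4.0 in controls and 7.30, 6.83 and 6.86 in Rnf2delta, and 5.98 to 6.45 in E13.5 XX controls. It rose by 2.85 ± 0.40 (adjusted p = 1.5e-04, with 1.6e-07 to 0.0042 over the alternatives). Crabp1, a related carrier, differed by 0.95 ± 0.33 without overlap between groups and did not pass (adjusted p = 0.16). Rarb, a receptor and direct target of retinoic acid, differed by 0.05 ± 0.17 (adjusted p = 0.95), and by -0.05 without control array 2. Aldh1a2, a retinoic acid-synthesising enzyme, differed by 0.13 ± 0.35 (adjusted p = 0.93), and by -0.08 without control array 3. Of 21 BMP response genes, 1 rose (4.76%), Tsc22d1 (0.77 ± 0.20, adjusted p = 0.038, with 0.0018 to 0.24 over the alternatives). Of the fits that left out 1 array, it kept its call without control array 2, and was 0.20 and 0.17 without control arrays 1 and 3, and 0.13, 0.081 and 0.066 without Rnf2delta arrays 1, 2 and 3. It was also 0.073 with 1 weight per array, 0.24 with the compared groups alone and 0.14 with quantile normalization.

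Of 31 pluripotency genes tested, 0 rose and 0 fell (limma; 0 and 9 at an unadjusted p under 0.05), 7 had all Rnf2delta arrays below all controls and 1 had all above, and the median change was -0.26. Over all genes, 5.81% had all Rnf2delta arrays below and 11.9% all above. The difference was above 0 for 8 of the 31 (25.8%, against 56.7% of all genes). The list means of the groups overlapped (5.06 to 5.37 in controls and 4.78 to 5.13 in Rnf2delta). With equal weights 7 fell. Pou5f1, the core pluripotency factor that germ cells retain, was 9.27, 9.44 and 9.35 in controls and 8.45, 8.79 and 8.86 in Rnf2delta, a difference of -0.65 ± 0.22 (adjusted p = 0.15, with 0.0068 to 0.42 over the alternatives). Its E13.5 XX control level was 8.72 to 9.06. Sox2, its partner factor, was 6.52, 6.26 and 6.41 in controls and 5.77, 5.65 and 5.76 in Rnf2delta, and differed by -0.67 ± 0.24 (adjusted p = 0.17, with 0.011 to 0.38 over the alternatives). Nanog differed by -0.58 ± 0.26 and overlapped (adjusted p = 0.33). Early germ cell genes gave 0 of 18 that rose or fell (limma; 1 and 4 at an unadjusted p under 0.05), including Dppa3, an early germ cell marker (-0.56 ± 0.20, adjusted p = 0.18). Among 18 oogenesis genes 0 passed in limma, and at an unadjusted p under 0.05 4 were higher and 1 lower. Figla, an oocyte transcription factor, differed by 0.78 ± 0.33 (adjusted p = 0.29). Of 12 genes of male germ cell fate, 1 passed (8.33%, against 1.35% of all genes that rose), Mov10l1 as above. Nanos2, the male fate regulator, was at 2.37, 2.68 and 2.16 in controls and 2.16, 2.07 and 2.35 in Rnf2delta.

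Hox genes and other developmental transcription factors are classical Polycomb targets. Of 25 Hox genes tested 1 rose (4.0%, against 1.35% of all genes). This was Hoxd9 (1.07 ± 0.23, adjusted p = 0.011, with 2.9e-04 to 0.16 over the alternatives), which lost its call without control array 3 (0.085) and with the compared groups alone (0.16). Hoxd9 read 1.71 to 1.99 in controls, below the medians of these arrays (2.68 to 2.73), and 2.62 to 3.58 in Rnf2delta. Of 61 developmental transcription factors 0 passed in limma (6 higher and 4 lower at an unadjusted p under 0.05), and their median change was -0.04. With the compared groups alone 1 was higher and 0 lower, and with equal weights 5 were higher and 4 lower. The 1 was Zic2, a zinc-finger factor, which read 2.40, 2.33 and 2.34 in controls and 3.35, 3.22 and 3.60 in Rnf2delta. These groups did not overlap, and the difference was 1.03 ± 0.32 (adjusted p = 0.11, 0.048 with the compared groups alone, with 0.0031 to 0.28 over the alternatives). Genes with low signal were not tested, which left 25 of 37 Hox genes and 61 of 77 factors with a probe set. Of 28 PRC1 subunits 1 rose (3.57%), Cbx8, a chromatin-binding subunit. It was 3.25, 3.15 and 2.84 in controls and 4.72, 3.92 and 4.31 in Rnf2delta, and rose by 1.23 ± 0.25 (adjusted p = 0.0069, with 5.2e-05 to 0.073 over the alternatives). The Cbx8 call was lost without control array 3 (0.073) or Rnf2delta array 1 (0.061) and with the compared groups alone (0.068). Of 13 PRC2 subunits 0 passed in limma (2 higher and 0 lower at an unadjusted p under 0.05). The smallest was Rbbp7, a histone-binding subunit, at 0.72 ± 0.19 (adjusted p = 0.054).

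Among 8 cell cycle inhibitors and Rb family genes 1 rose (beside 1.35% of all genes), with a median change of 0.58. Cdkn1c, a Cdk inhibitor and imprinted gene, was 3.93, 4.08 and 3.55 in controls and 4.76, 5.02 and 5.13 in Rnf2delta, and rose by 1.12 ± 0.24 (adjusted p = 0.011, with 9.8e-05 to 0.11 over the alternatives). It lost its call without control array 3 (0.11) or Rnf2delta array 2 (0.059), with the compared groups alone (0.059) and with quantile normalization (0.079). Cdkn2a, a well-known PRC1 target in other cells, differed by 0.61 ± 0.27 with overlapping groups (adjusted p = 0.30). Of 33 genes of mitotic division 2 rose (6.06%), both D-type cyclins. Ccnd1 rose by 1.07 ± 0.24 (adjusted p = 0.018, with 7.1e-05 to 0.10 over the alternatives) and lost its call without control array 2 (0.059), control array 3 (0.098) or Rnf2delta array 2 (0.075) and with quantile normalization (0.10). Ccnd2 rose by 1.71 ± 0.42 (adjusted p = 0.032, with 3.8e-04 to 0.12 over the alternatives). Of the fits that left out 1 array, it kept its call without Rnf2delta array 3 (0.040), and was 0.11, 0.088 and 0.082 without control arrays 1, 2 and 3, and 0.090 and 0.12 without Rnf2delta arrays 1 and 2. Quantile normalization gave Ccnd2 0.10.

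In growth and metabolism the genes that rose came from several lists. The share that rose over all genes was 1.35%. Ldha, the lactate dehydrogenase subunit, rose by 1.75 ± 0.37 (adjusted p = 0.0097, with 5e-05 to 0.075 over the alternatives) as the single call of 20 glycolysis genes, and was 0.075 without control array 2 and 0.059 with quantile normalization. Of 14 genes of the insulin-like growth factor axis, 3 rose (21.4%). These were its receptor Igf1r (1.37 ± 0.32, adjusted p = 0.020), the insulin receptor Insr (0.92 ± 0.21, adjusted p = 0.020) and the binding protein Igfbp2 (1.12 ± 0.30, adjusted p = 0.048). Of the fits that left out 1 array, Igf1r kept its call without Rnf2delta array 3. It was 0.059, 0.094 and 0.054 without control arrays 1, 2 and 3, and 0.12 and 0.077 without Rnf2delta arrays 1 and 2. Of the same fits, Insr kept its call without control array 2 or Rnf2delta array 3, and was 0.10 and 0.15 without control arrays 1 and 3, and 0.097 and 0.076 without Rnf2delta arrays 1 and 2. Igfbp2 lost it whichever array was left out, with 0.083, 0.13 and 0.19 without control arrays 1, 2 and 3, and 0.078, 0.092 and 0.14 without Rnf2delta arrays 1, 2 and 3. With quantile normalization Igf1r was 0.062, Insr 0.093 and Igfbp2 0.17. With the compared groups alone Insr was 0.18 and Igfbp2 0.074, and Igfbp2 was 0.061 with no filter and 0.059 with the stricter filter. Over the alternatives, adjusted p ranged from 2e-04 to 0.12 for Igf1r, 5.8e-04 to 0.18 for Insr and 0.0012 to 0.19 for Igfbp2. Of 37 oxidative phosphorylation genes 3 rose, or 8.11% (Sdhb, Cox4i1 and Atp5pb), by 0.54 to 1.08. The median over the list was 0.20, and 0 passed in the fit of the compared groups alone. The list mean was 8.59 to 8.76 on the controls, 8.80 to 8.97 on the Rnf2delta arrays and 8.72 to 9.07 on the 24 other arrays. The control means of Sdhb and Cox4i1 were the lowest of all group means, and that of Atp5pb was not. Imprinted genes gave 2 of 27 (7.41%), Cdkn1c and Plagl1 (1.17 ± 0.27, adjusted p = 0.020, with 0.001 to 0.23 over the alternatives). Plagl1, a zinc-finger factor, kept its call without control array 2 or Rnf2delta array 3. It was 0.051 and 0.23 without control arrays 1 and 3, 0.078 and 0.12 without Rnf2delta arrays 1 and 2, 0.19 with the compared groups alone and 0.11 with quantile normalization. Of 19 dissociation stress genes and 16 DNA methylation genes 0 passed in limma (0 and 2 at an unadjusted p under 0.05), and 1 of 17 apoptosis genes did, Bcl2, an inhibitor of apoptosis. Bcl2 changed by 0.68 ± 0.18 (adjusted p = 0.047, with 0.0018 to 0.25 over the alternatives). It read 1.70 to 2.04 in controls, below the medians of these arrays (2.68 to 2.73), and 2.26 to 2.85 in Rnf2delta. Of the fits that left out 1 array, its call was kept without Rnf2delta array 2, with 0.088, 0.082 and 0.24 without control arrays 1, 2 and 3, and 0.25 and 0.063 without Rnf2delta arrays 1 and 3. Bcl2 was also 0.083 with 1 weight per array and 0.23 with the compared groups alone.

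**Figure D2:**
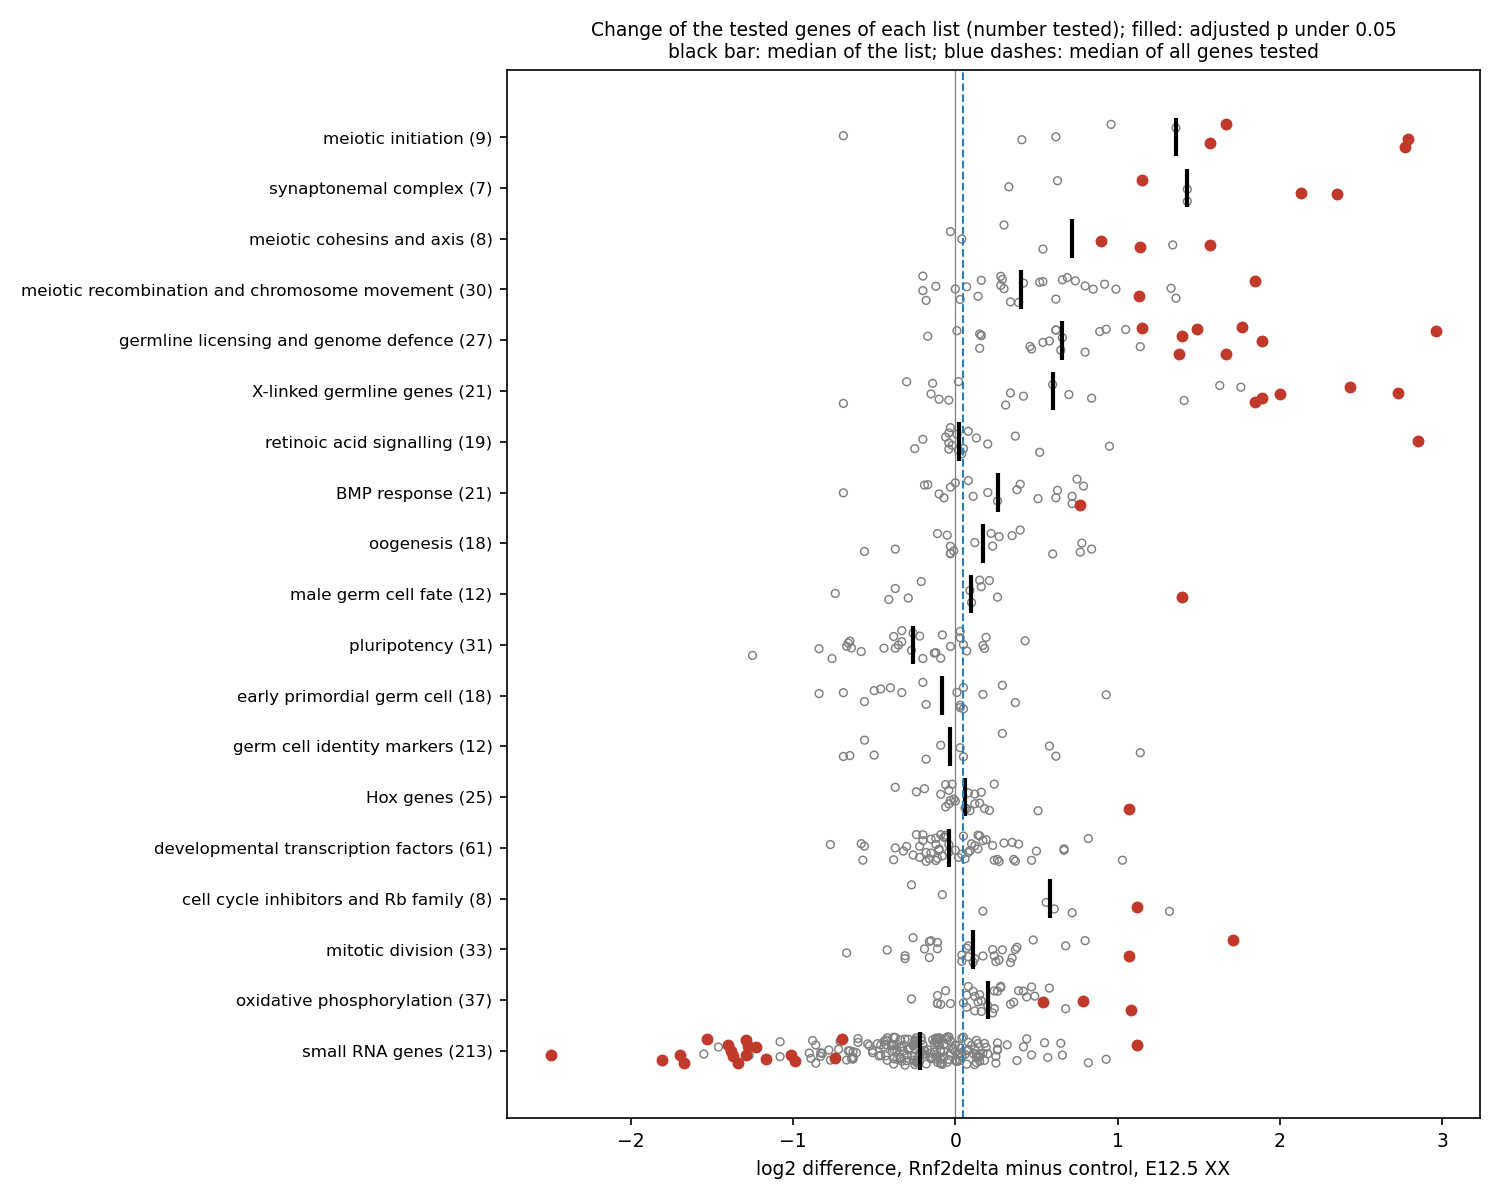
Log2 difference of Rnf2delta minus control in E12.5 XX (horizontal axis) for the tested genes of 19 lists (vertical axis, number tested in brackets); filled dots passed at adjusted p under 0.05, black bars are list medians and the dashed line is the median of all genes, 0.05. The meiotic, licensing and X-linked germline lists hold filled dots on the right only, and the small RNA list holds 18 on the left and 1 on the right.

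Several genes outside these lists rose strongly. Cd63, a tetraspanin of endosomes, was 4.42, 6.28 and 4.26 in controls and 8.07, 8.57 and 8.19 in Rnf2delta. It had the largest change of the genes that rose, 3.29 ± 0.40 (adjusted p = 1.9e-05, with 1.6e-07 to 0.021 over the alternatives). Gstm5, a glutathione transferase, rose by 2.21 ± 0.26 (adjusted p = 1.9e-05, with 1.2e-08 to 0.004 over the alternatives) and separated cleanly, at 4.01, 4.17 and 3.93 against 6.29, 6.55 and 5.92. Its sequence family has close paralogues that could share probes. Ddx43, a germline DEAD-box helicase, rose by 2.13 ± 0.34 (adjusted p = 8.5e-04, with 1.3e-06 to 0.010 over the alternatives). Ppp2r5a, a regulatory subunit of protein phosphatase 2A, rose by 2.17 ± 0.44 (adjusted p = 0.0072), with 0.067 without Rnf2delta array 2, 0.085 with the mean of its probe sets and 7.1e-05 to 0.085 over the alternatives. The Ppp2r5a controls (3.22, 3.80 and 4.54) lay below every E11.5 and XY array (6.12 to 7.65), and the Rnf2delta arrays read 5.44, 6.55 and 6.09. E13.5 XX controls read 4.14 to 5.73.

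The called genes differed in where the compared groups stood among the 10 group means. These genes were chosen on the same arrays, which favours extreme means, so the counts are a description. For 98 of the 205 risen genes (47.8%, against 12.6% of all genes) the Rnf2delta mean lay above the means of all 8 other groups. For 108 (52.7%, against 27.0% of all genes) the control mean lay below them. Sycp3, Sycp1, Crabp2, Tex101, Taf9b, Xlr, Tex11, Cbx8, Cdkn1c, Igf1r, Insr and Plagl1 were of the first kind alone. Ppp2r5a, Gstm5, Ccnd2, Hoxd9, Tsc22d1, Sdhb, Cox4i1 and Usp31, a ubiquitin-specific protease, were of the second kind alone. Cd63, Tm6sf1, Tktl1, Mov10l1 and Bcl2 were of both, and Stra8, Meioc, Rec8 and Atp5pb were of neither. Of the 30 genes that fell, 24 had a control mean above all 8 others (80.0%, against 12.6% of all genes).

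Most of the genes that fell were small RNA genes by symbol. Of 213 small RNA genes tested, 18 fell and 1 rose (Mir505), with a median change of -0.22, and 53 had all Rnf2delta arrays below all controls. The list was made from the start of the symbol, and 156 of the tested genes were Mir genes. Before the filter on signal it also held the longer host transcripts Mir100hg and Mir17hg. Whether these probe sets read mature small RNAs or longer precursors is not known here. Among all genes tested, 0.198% fell and 5.81% had all Rnf2delta arrays below all controls. Of 20 Snora genes, which guide pseudouridylation of ribosomal RNA, 9 fell, with a median of -0.77. Vaultrc5, a vault RNA, was 6.39, 5.93 and 7.04 in controls and 3.52, 3.44 and 4.93 in Rnf2delta, and fell by 2.49 (SE 0.44, adjusted p = 0.0022, with 1.5e-05 to 0.039 over the alternatives). Rny3, a Y RNA bound by the Ro protein, was 9.32, 9.19 and 9.19 in controls and 7.60, 7.0 and 8.02 in Rnf2delta. It fell by 1.70 (SE 0.30, adjusted p = 0.0021, with 8.5e-06 to 0.029 over the alternatives). Snora21 fell by 1.67 (SE 0.27, adjusted p = 8.5e-04, with 1.8e-06 to 0.36 over the alternatives). The highest value of Snora21 came from averaging its probe sets. Rny3 on the 24 other arrays spanned 6.89 to 8.28, below all E12.5 XX controls. The mean over the 213 genes was 3.59 to 3.66 on these controls, 3.28 to 3.37 on the Rnf2delta arrays and 3.38 to 3.58 on the other arrays, so the compared groups lay on opposite sides of the rest. Without control array 3 or Rnf2delta array 1, 6 small RNA genes fell, and 9 without Rnf2delta array 2. In the fit of the compared groups alone 4 fell. The part of this offset in the result was not tested. The 61 ribosomal protein genes gave 0 calls in limma (2 higher at an unadjusted p under 0.05), with a median change of 0.10, and 2 of 25 replication-dependent histone genes fell (H2bc14 and H2bc18); these lists were added after values were seen.

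**Figure D3:**
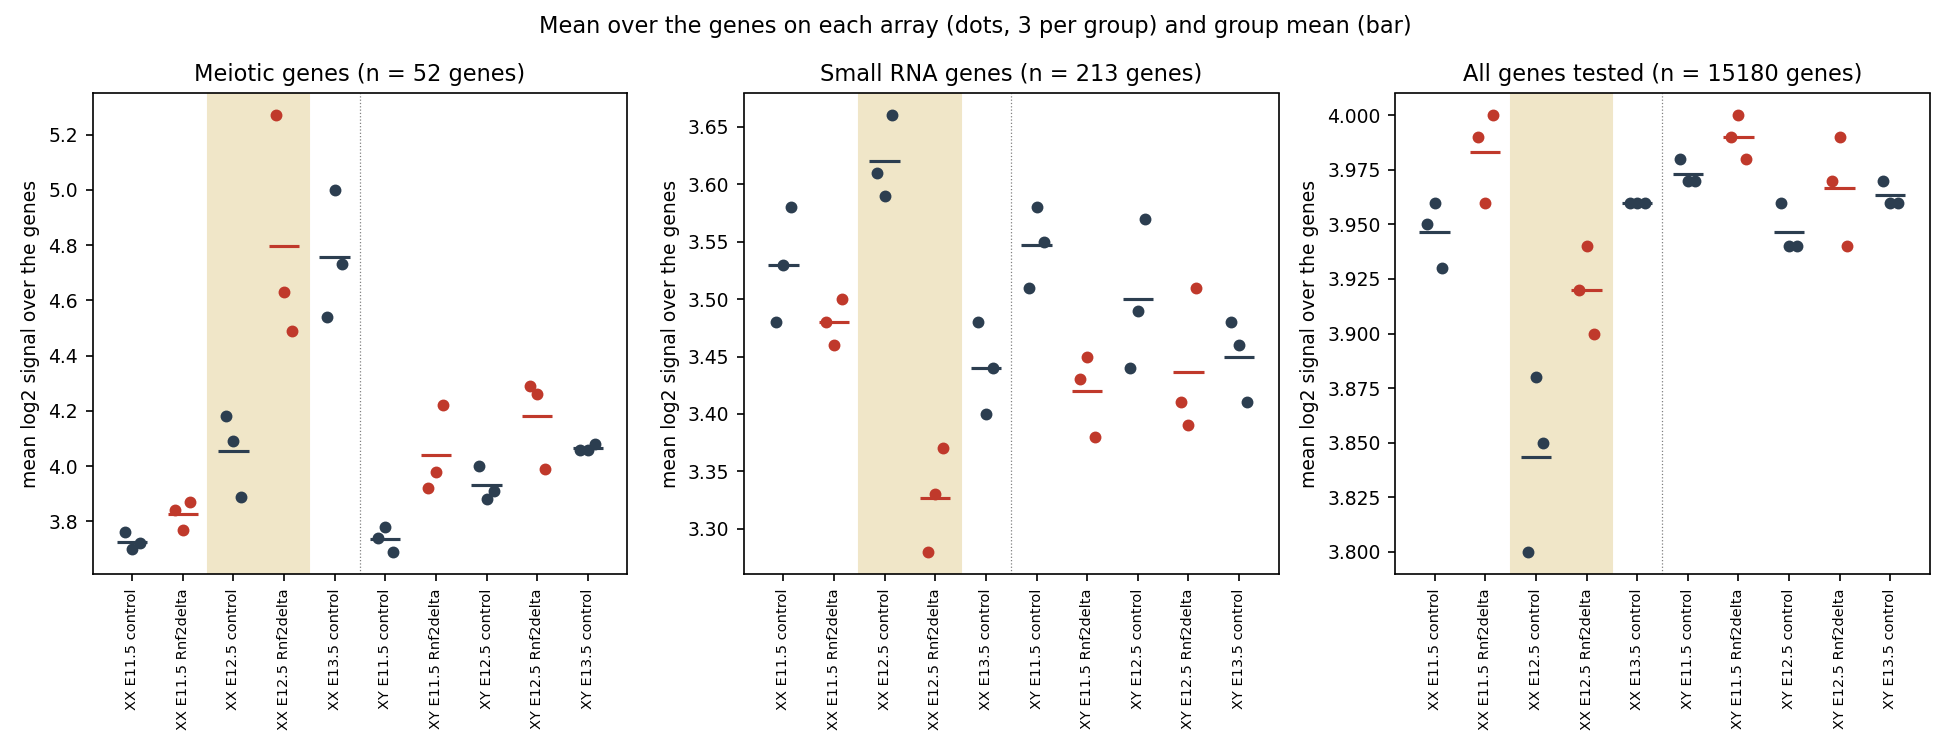
Mean log2 signal over 52 meiotic genes, 213 small RNA genes and 15180 tested genes (vertical axes) on each of the 30 arrays, by group (horizontal axis); dots are arrays, bars are group means and the compared groups are shaded. In the meiotic panel the E12.5 XX Rnf2delta arrays (4.49 to 5.27) reach the E13.5 XX controls, and in the small RNA panel the E12.5 XX controls are the highest and the Rnf2delta arrays the lowest of the groups.

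No marker of another gonadal cell type passed the test. Of 16 supporting cell, 16 interstitial and mesenchymal, 3 steroidogenic, 8 mesonephric epithelium, 7 endothelial, 7 erythroid and 6 macrophage markers tested, 0 passed in limma. At an unadjusted p under 0.05 the supporting cell markers gave 2 higher, the mesonephric markers 1 higher and 2 lower, the interstitial and endothelial markers 1 lower each, and the others 0. The supporting cell mean was 2.61 to 2.63 in controls and 2.49 to 2.76 in Rnf2delta. This was near the medians of these arrays over probe sets with 1 gene symbol, 2.68 to 2.73. The interstitial and mesenchymal mean was 2.61 to 2.67 and 2.58 to 2.72. The erythroid mean was 2.33 to 2.50 and 2.18 to 2.32, without overlap, and its part in the results was not tested. The macrophage mean was 2.36 to 2.50 and 2.41 to 2.81. Germ cell identity markers (12 genes, 0 called) averaged 6.62 to 6.77 in controls and 6.44 to 6.88 in Rnf2delta, high in both. At an unadjusted p under 0.05 in limma, 1 of the 12 was higher and 4 were lower. All Rnf2delta arrays lay below all controls for 4 of the 12 and above them for 1. Over all genes these shares were 5.81% and 11.9%.

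The change in Rnf2delta was set beside the normal change of XX controls between E11.5 and E13.5, which uses none of the compared arrays. Of 2495 genes that rose in controls over these days, 140 rose in E12.5 XX Rnf2delta (5.61%, against 1.35% of all genes) and 3 fell, with a median change of 0.29. Among the 525 that rose by at least 1 on the log2 scale, 76 rose (14.5%) and 1 fell, with a median of 0.54. Of 2136 genes that fell in controls, 8 rose and 8 fell, and the median was -0.02, with -0.13 to 0.05 over the alternatives. Seen from the other side, 140 of the 205 risen genes rise normally (68.3%), 8 fall normally (3.90%) and 57 passed in neither direction (27.8%). Over all genes tested 16.4% rise normally and 14.1% fall normally, and 10549 of 15180 passed in neither direction. The 8 that fall normally include Ppp2r5a, and the 57 include Taf9b, Xlr, Tktl1 and Ldha. Across all 15180 genes, which are not independent replicates, Pearson's r between both changes was 0.34. Stra8 (4.06), Ptprj (3.60), a receptor phosphatase, Meioc (3.49), Cited1 (3.38), a transcriptional co-regulator, and Rec8 (3.12) had the largest normal rises. Of these Stra8, Meioc and Rec8 rose in Rnf2delta as above, and Ptprj rose by 1.73 ± 0.37 (adjusted p = 0.011, with 3.2e-04 to 0.17 over the alternatives). Ptprj lost its call without control array 3 (0.17), Rnf2delta array 1 (0.053) or Rnf2delta array 2 (0.077) and with the compared groups alone (0.10). Cited1 did not pass (0.31, adjusted p = 0.85), and its difference was -0.46 without Rnf2delta array 1. Tdgf1, a co-receptor of Nodal, had the largest normal fall (-4.29) and differed by -1.25 in Rnf2delta, with all arrays below controls (adjusted p = 0.27).

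Sex was compared in the E13.5 controls, which also share no array with the contrast. Between XX and XY 3422 genes differed (22.5%). Of the 1670 higher in XX, 103 rose (6.17%, against 1.35% of all genes) and 2 fell, with a median change of 0.26. Of the 265 higher by at least 1, 38 rose (14.3%) and 0 fell, with a median of 0.56. Of 1752 genes lower in XX than XY, 9 rose and 8 fell, with a median of 0.04 (-0.06 to 0.09 over the alternatives). In 32 of the 205 risen genes both held by at least 1, a normal rise and a higher level in XX at E13.5. They include Stra8, Meioc, Rec8, Sycp1, Sycp3, Crabp2, Tex101, Taf7l, Cbx8, Ccnd1 and Plagl1. How many of all 15180 genes meet both was not counted, and it cannot exceed the 265 higher in XX by at least 1.

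The same deletion was measured at E12.5 in XY and at E11.5 in XX germ cells, on arrays that share none with the E12.5 XX contrast. In E12.5 XY 177 genes changed (1.17%), of which 155 rose (1.02%) and 22 fell (0.145%). In E11.5 XX 153 changed (1.01%), of which 140 rose (0.922%) and 13 fell (0.0856%). Of the 205 genes, 51 also rose in XY, which is 24.9% of the 205 and 32.9% of the XY list, and 38 in E11.5 XX, 18.5% and 27.1%. In all 3 comparisons 27 rose, among them Cd63, Tex101, Gstm5, Ddx43, Tex11, Ldha, Igf1r, Igfbp2, Cbx8 and Cdkn1c. The change of Tex101 was 2.96 in E12.5 XX, 2.88 in E12.5 XY and 1.18 in E11.5 XX, and that of Cd63 was 3.29, 2.05 and 2.01. Stra8 gave 2.79, -0.02 and 0.07, Meioc 2.77, 0.74 and 0.29, and Crabp2 2.85, 0.76 and 1.22. The 52 meiotic genes had a median change of 0.62 in E12.5 XX, 0.13 in E12.5 XY and 0.05 in E11.5 XX, and the small RNA genes -0.22, -0.05 and -0.06.

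**Figure D4:**
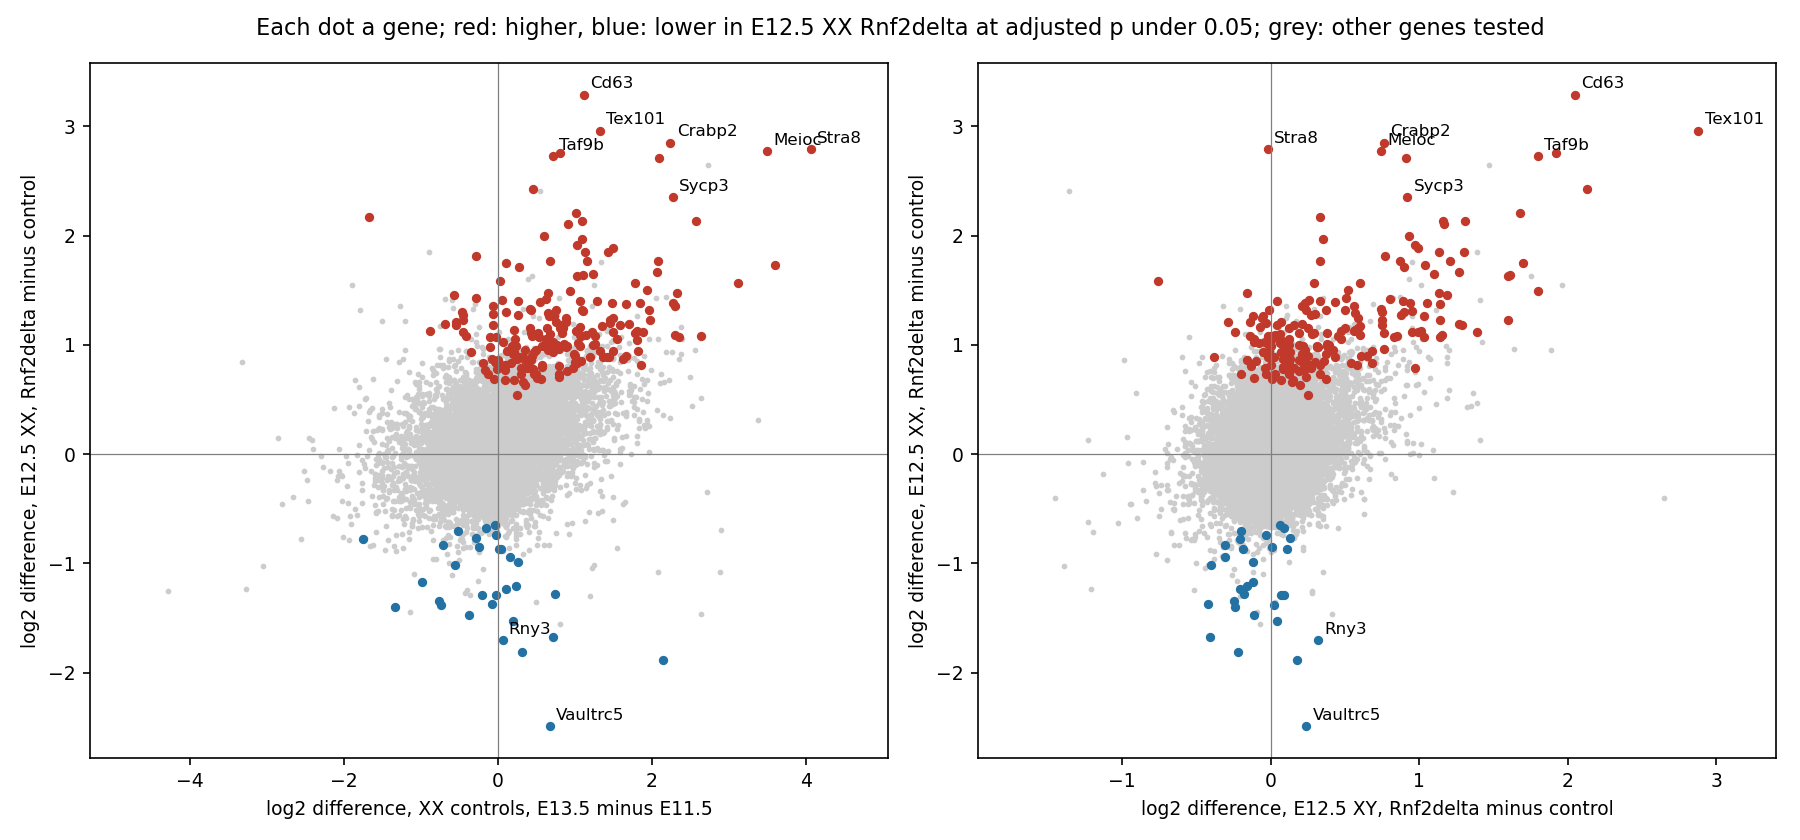
Log2 difference of Rnf2delta minus control in E12.5 XX (vertical axes) against the normal difference of E13.5 minus E11.5 XX controls (left, horizontal axis) and against the Rnf2delta effect in E12.5 XY (right, horizontal axis), for 15180 genes. Red genes rose and blue genes fell in E12.5 XX; Stra8 sits at the far right of the left panel (4.06) and at -0.02 on the right panel, while Tex101 is far right in the XY panel (2.88).

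The difference between effects was tested by an interaction. Between the sexes at E12.5, 2 genes passed (0.0132% of genes), 1 with a higher and 1 with a lower effect in XX (0.00659% each), and between the stages in XX, 4 passed (0.0264%), of which 1 had a lower effect at E12.5 (0.00659%). Stra8 did not pass between the sexes (2.81 ± 0.55, adjusted p = 0.064, with 0.0061 to 0.25 over the alternatives) or between the stages (adjusted p = 0.058, with 0.003 to 0.28). Meioc passed between the stages, where its effect was larger by 2.48 at E12.5 than at E11.5 (adjusted p = 0.013, with 0.0033 to 0.20 over the alternatives), and not between the sexes (adjusted p = 0.097, with 0.015 to 0.32). The effect on Crabp2 did not differ past the threshold (adjusted p = 0.15 between the sexes and 0.35 between the stages). For Tex101 the difference between the sexes was near 0 (adjusted p = 0.98).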

How the data were processed

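Each sample was 1 Affymetrix array of RNA from 500 sorted germ cells, amplified by whole-transcriptome PCR per the labels' protocols. The authors deposited 1 table of log2 values for 34760 probe sets on 30 arrays; per the submitters' processing notes R 2.15 and affy 1.36 were used, and the summarisation method is not given in the sources used here. Each array's median over all probe sets was 2.52 to 2.66, and the values were not normalized again. Arrays give no counts; precision depends on how many arrays there are.

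Probe sets with 1 gene symbol (21640; 1321 had several and 11799 none) were renamed through Entrez IDs to RefSeq symbols (21553 matched, 87 kept the platform symbol). The probe set with the highest mean stood for a gene. Of 19937 genes, 15180 exceeded their array's 40th percentile on at least 3 arrays and were tested. limma 3.58.1 (R 4.3.3) fitted 10 group means to all 30 arrays with 1 variance factor per group (arrayWeights), and p-values were adjusted by Benjamini-Hochberg at 0.05. Interaction terms compared Rnf2delta effects. All 15 alternatives are in the closing section, and the scripts were tested on simulated data.

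The genes described were Rnf2, Ring1, a written list, the 15 largest rises and 10 largest falls among called genes without overlap, up to 4 genes per list with the smallest p, and the largest interaction and normal changes. Not all are named. Members and lists were chosen with earlier results of these data known. Replicate numbers were checked as pairs. The correlation of deviations of same-numbered arrays was 0.09, 0.06 and 0.08, and that of differently numbered arrays was -0.12 to 0.05. Whether same-numbered arrays share a source was not tested. The main fit left them unpaired, and a fit with the number as a block is in the closing section. Promoters came from RefSeq (GRCm38.p6).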

Additional observations from a re-analysis of the deposited data

Results flagged for a closer look

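For 6 genes the Rnf2delta effect in E12.5 XX germ cells differed from the effect in another sex or stage by limma's interaction test. Between XX and XY at E12.5, the effect on Tmem59, a Golgi protein, was higher by 1.31 in XX (adjusted p = 0.043, with 0.0016 to 0.11 over the alternatives, past 0.05 in 8 of 15). The effect on the Y RNA Rny3 differed by -2.02 (adjusted p = 0.047, with 0.0026 to 0.15, past 0.05 in 6 of 15).

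Between E12.5 and E11.5 in XX, the effect differed by 2.76 for 1700013H16Rik, an uncharacterised gene (adjusted p = 0.0014, with 1.9e-05 to 0.16 over the alternatives, past 0.05 in 14 of 15). It differed by 2.48 for Meioc (adjusted p = 0.013, with 0.0033 to 0.20, past 0.05 in 12 of 15). For Usp31 the difference was 1.99 (adjusted p = 0.018, with 0.0011 to 0.35, past 0.05 in 10 of 15). For Gm12238 it was -1.64 (adjusted p = 0.018, with 0.003 to 0.25, past 0.05 in 10 of 15).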

How the results depend on the processing

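Of the 45 named genes that passed, 18 kept their call in all 15 alternatives. Calls were lost in 18 of the 45 with the compared groups alone, in 14 with quantile normalization, in 21 without control array 3, in 20 without Rnf2delta array 1, in 12 without Rnf2delta array 2, in 13 without control array 2, in 10 without control array 1, in 4 without Rnf2delta array 3, in 3 each with 1 weight per array or no filter, in 2 with the mean of probe sets, in 1 with the stricter filter, and in 0 with equal weights, the replicate block or limma's trend and robust options. The number of changed genes, 235, became 1502 with equal weights, 54 with the compared groups alone, 113 with quantile normalization, 254 with 1 weight per array, 224 with no filter, 180 with the stricter filter, 230 with the mean of probe sets and 238 with trend and robust, and spanned 75 to 353 with 1 array left out. The 11 changed meiotic genes became 23 with equal weights and 7 with the compared groups alone or with quantile normalization, and spanned 5 to 15 with 1 array left out. The 2 genes that differed between the sexes became 5 with 1 weight per array, 45 with equal weights, 1 with the compared groups alone or with no filter, and 0 with quantile normalization or the stricter filter (limma; 1164 and 926 at an unadjusted p under 0.05), and spanned 0 to 16 with 1 array left out. The 4 that differed between the stages became 22 with equal weights and 0 with the compared groups alone (1028 at an unadjusted p under 0.05), and spanned 2 to 23. The cause of these moves was not tested.

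With the replicate number as a block (replicate block), 301 genes changed, all 235 among them, 15 meiotic genes changed and 6 genes differed between the sexes. The labels do not tie the numbers to shared embryos.

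Signs turned in 5 genes that did not pass. Ring1 spanned -0.28 to 0.10 with 1 array left out, Rarb -0.05 to 0.15, Aldh1a2 -0.08 to 0.45, Cited1 -0.46 to 0.73 and Eif2s3y -0.15 to 0.11. Eif2s3y was 0.08 with quantile normalization. With 3 noisy arrays a group, modest differences could be missed.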
